A study of Mus musculus with 6 samples.

Results

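The amacrine cell genes described here are Chat, Slc18a3, Slc5a7, Th, Calb2, C1ql2, Tfap2a, Tfap2b, Tfap2c and Pax6. Every probe set of the array whose platform symbol is one of these 10 names was taken, which gave 19 probe sets of 45037, and all 19 were bright enough to be tested. The crush group held 3 eyes of male C57BL/6J mice, enucleated 6 hrs after the optic nerve had been crushed with forceps for 10 sec within an intact meningeal sheath, and the control group held 3 uninjured contralateral eyes of the same animals. The sources used here name no transgene or drug in either group, and they do not give the age of the mice. About 6000 cells of the ganglion cell layer were laser captured from each eye, and their RNA was amplified and hybridized to 1 array per eye. Eyes with the same number were treated as a pair. The labels do not say whether equal numbers mark the eyes of 1 animal or whether the numbers stand for separate animals, so the tests measure the spread between these eyes only.

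Amacrine cells are the inhibitory interneurons of the inner retina. Most lie in the inner nuclear layer, and a second population, the displaced amacrine cells, lies among the RGCs in the ganglion cell layer. Starburst amacrine cells are the cholinergic neurons of the retina and serve direction selectivity, and dopaminergic amacrine cells release dopamine in the light. The AP-2 transcription factors and Pax6 act in the specification of amacrine cells and stay on in the mature cells, and Pax6 and calretinin are also made by RGCs. The captured layer holds RGCs, displaced amacrine cells and glia together, so fewer amacrine cells in a sample and less RNA per amacrine cell cannot be told apart in these values. Genes of other layers were also bright on these arrays. The rod gene Sag had a mean of 10191 and the bipolar cell gene Prkca 6007, beside 9032 for Thy1 of RGCs. The amacrine values therefore cannot be assigned to displaced amacrine cells alone, and a varying share of inner nuclear layer material cannot be told apart either.

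Neighbouring genes among these bear on the results below, and the bases before their start sites are shown because they share a locus. Slc18a3 lies within the Chat gene, so that both form one cholinergic locus, and Pax6os1, a noncoding transcript of the opposite strand, overlaps Pax6 at its start. The sequences are the 250 bases before the start site from RefSeq (build GRCm38.p6), read 5′ to 3′ on the strand of the gene, with matches to the AP-2 consensus GCCNNNGGC in capitals. The consensus is its own reverse complement, so both strands were covered. It was searched since 3 of the 10 genes encode AP-2 factors.
Chat, chr14:32465910-32466159, minus strand: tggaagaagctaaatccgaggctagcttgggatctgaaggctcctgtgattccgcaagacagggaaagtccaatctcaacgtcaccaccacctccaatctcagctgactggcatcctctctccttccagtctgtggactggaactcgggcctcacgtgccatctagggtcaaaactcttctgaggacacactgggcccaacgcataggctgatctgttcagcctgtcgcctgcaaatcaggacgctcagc
Slc18a3, chr14:32464851-32465100, minus strand: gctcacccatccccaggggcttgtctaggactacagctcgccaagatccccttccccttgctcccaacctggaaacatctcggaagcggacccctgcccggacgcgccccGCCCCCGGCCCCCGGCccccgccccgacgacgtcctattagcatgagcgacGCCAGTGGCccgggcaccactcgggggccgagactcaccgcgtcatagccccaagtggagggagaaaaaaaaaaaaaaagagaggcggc
Pax6, chr2:105668646-105668895, plus strand: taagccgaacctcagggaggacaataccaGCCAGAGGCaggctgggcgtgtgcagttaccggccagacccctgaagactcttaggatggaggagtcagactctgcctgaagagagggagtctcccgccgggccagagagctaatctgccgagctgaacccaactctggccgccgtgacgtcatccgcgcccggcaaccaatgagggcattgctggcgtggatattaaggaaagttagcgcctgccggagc
Slc18a3 had 3 matches, of which the first pair overlap, Pax6 had 1 in the window shown and Chat had 0. A second listed window of Pax6, chr2:105682213-105682462, is not shown and had 0. Promoters were listed for 8 of the 10 genes, 10 windows in all, and 2 of these windows held a match. Of 32851 promoter windows of the same length in the table, 13.7% held one. A match is a string of letters and not a shown binding site.

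Median intensity was 131.2 to 153.9 on the crush arrays and 141 to 143 on the control arrays. The array of crush eye 2 had 1331 probe sets that were lower than on each other array by over 1 on the log2 scale, and that of crush eye 3 had 255 probe sets higher by this margin. Among the 19 amacrine probe sets, Chat was one of those lower on crush eye 2, and 1 probe set of Tfap2c was lower by this margin on crush eye 3. The array of crush eye 2 was the lowest of the 6 for 9 of the 19. The ratio of the 3′ to the 5′ control probe set of Actb, which is higher in shorter RNA, was 7.21 to 10.5 after crush and 6.65 to 8.80 in control eyes. That of Gapdh was 4.62 to 7.54 after crush and 5.13 to 6.60 in control eyes. The Gapdh ratio was lower in the crushed eye of pairs 1 and 2, and the Actb ratio in that of pair 2 only. Both were thus lower in the crushed eye of pair 2 and higher in that of pair 3. These ratios did not move one way with the groups, and their part in the amacrine values of each pair was not tested. Of 8 RGC markers 7 had a probe set, and their summed intensity was 42000.1 to 52809 after crush and 46939 to 48422 in control eyes.

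At 6 hrs after crush, the dimmer probe sets of Tfap2c were lower than in control eyes at an unadjusted p under 0.05, and none of the other 9 genes passed that threshold. Of the 19 probe sets 16 had a log2 fold change below 0, against 51.1% of the 33169 tested on the array, and their median was -0.12 against -0.01 over all tested probe sets. With each gene taken by its brightest probe set, 9 of 10 genes lay below 0 and the median log2 fold change was -0.13. This was not the same in all eyes. Pair by pair, the median over the 10 genes was -0.06 for pair 1, -0.34 for pair 2 and 0.09 for pair 3, beside 0.02, -0.08 and 0.07 over all tested probe sets. The crushed eye was the lower of its pair for 14 of the 19 probe sets in pair 1, for 16 in pair 2 and for 8 in pair 3, where 46.2%, 57.8% and 40.6% of all tested probe sets were lower in pairs 1, 2 and 3. Without pair 2 the median over the genes was -0.04 with 12 of 19 probe sets below 0, and without the array of crush eye 2 alone it was -0.05, again with 12 of 19.

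**Figure D1:**
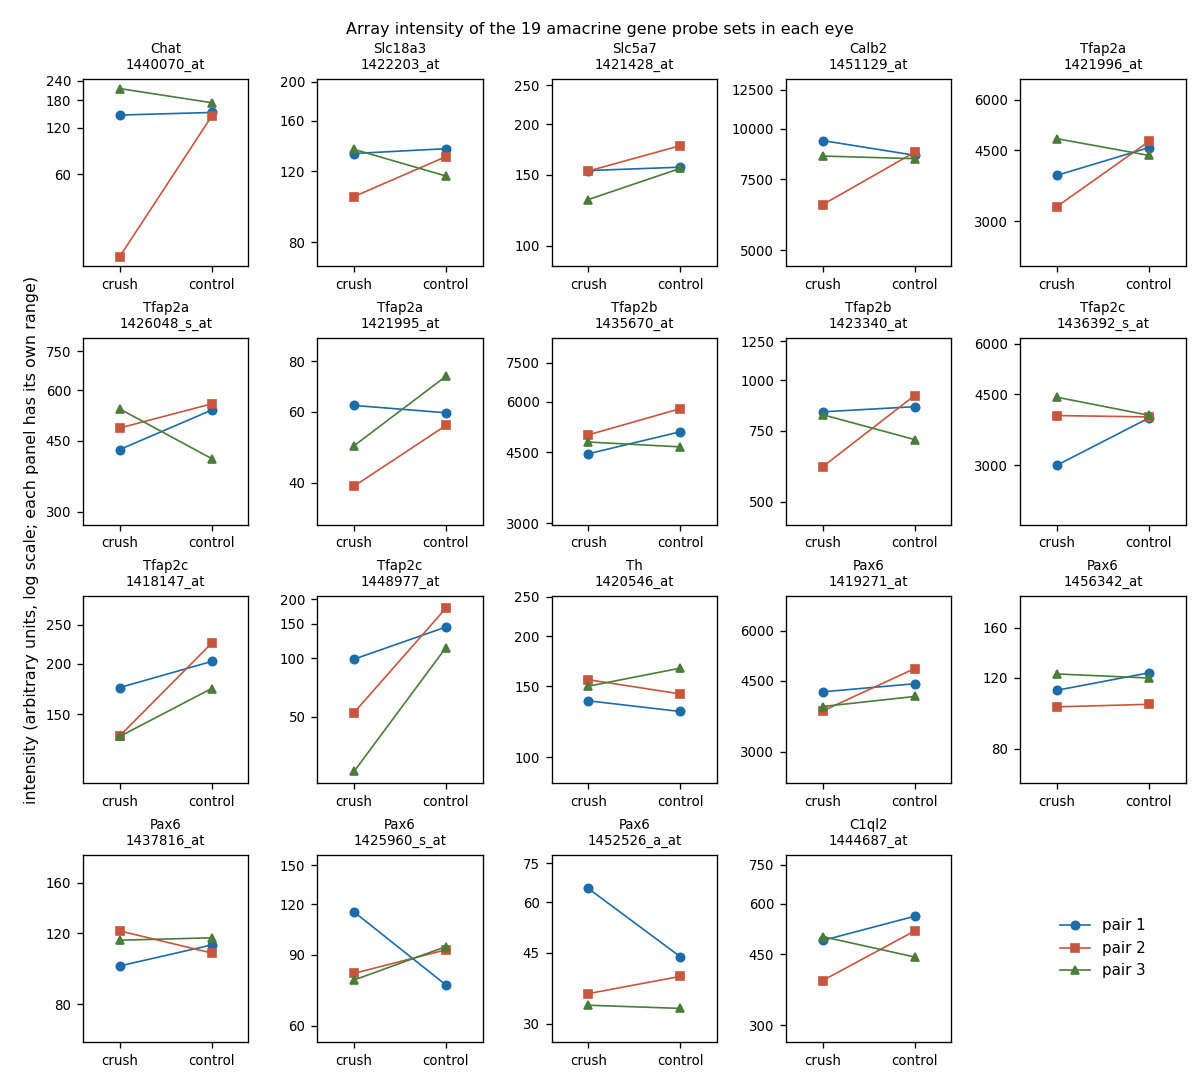
Array intensity, in arbitrary units on log axes with a range for each panel, of the 19 probe sets in crushed eyes (left) and control eyes (right), with a line joining the eyes of a pair. Chat drops to 17.7 in crush eye 2 alone, and the Tfap2c probe set 1448977_at has all 3 crushed eyes below all control eyes.

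By limma with the pair as a block, 2 of the 19 probe sets were lower and 0 higher at an unadjusted p under 0.05. Over the whole array 2.51% of probe sets were lower and 5.16% higher at that threshold, 7.68% in all. No probe set of the array passed a Benjamini-Hochberg adjusted p under 0.05, and the adjusted p of the 19 was 0.642 to 0.996. The crushed eyes lay below all control eyes for 2 of the 19, Slc5a7 and the dimmest Tfap2c probe set, where 5.25% of all tested probe sets did so, and above all of them for 0 of the 19, against 7.29%. By the methods' paired t-test on the intensities 0 of the 19 had an unadjusted p under 0.05.

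**Figure D2:**
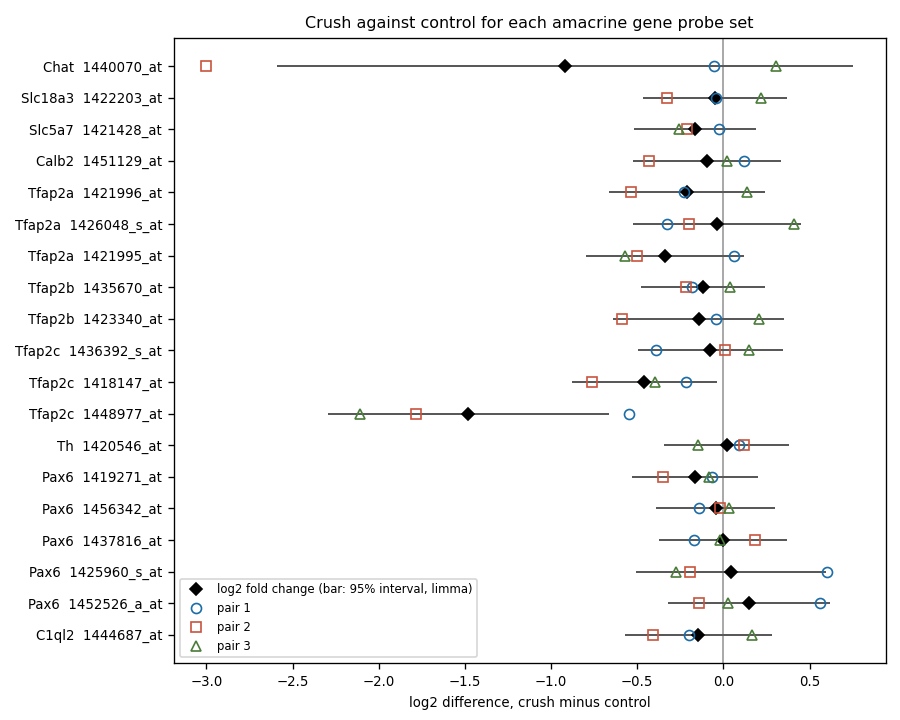
Log2 difference between crushed and control eyes of each amacrine gene probe set. Diamonds are the log2 fold change with its 95% interval from limma, and open symbols are the 3 pairs. The interval of 17 probe sets includes 0, and those of Tfap2c 1448977_at and 1418147_at lie below it.

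None of the cholinergic genes passed the test, and the sign of Chat and Slc18a3 turned over without pair 2. Chat encodes choline acetyltransferase, which makes acetylcholine. Its intensity was 145, 17.7 and 214 in crush eyes 1, 2 and 3, against 150.3, 142 and 174 in control eyes 1, 2 and 3. The low value of crush eye 2 stood alone, and the other crushed eyes overlapped the control eyes. The log2 fold change was -0.92 (standard error 0.66, adjusted p = 0.708 from limma) with all pairs, 0.12 without pair 2 and 0.19 without the array of crush eye 2, so that its sign rests on that array. Its size also depends on how the low value is treated, with -0.30 at a floor of 64 in place of 16 and -0.31 by the methods' paired t-test on the intensities, neither past an unadjusted p under 0.05.

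Slc18a3, the transporter that loads acetylcholine into vesicles, had an intensity of 133, 104 and 136 after crush and of 137, 131 and 117 in control eyes. The groups overlapped, with crush eye 2 the lowest of the 6. Its log2 fold change was -0.05 (95% interval -0.47 to 0.37) and 0.09 without pair 2. Slc5a7 takes up choline at cholinergic terminals. It had 154, 153 and 130.3 after crush and 157, 177 and 156 in control eyes. All crushed eyes lay below all control eyes, by a small margin in pair 1. The log2 differences were -0.03, -0.21 and -0.26 in pairs 1, 2 and 3, and the log2 fold change was -0.16 (standard error 0.14, adjusted p = 0.743 from limma), or -0.085 without the array of crush eye 3. All 3 cholinergic genes read at intensities close to the median of the arrays, except for Chat in crush eyes 2 and 3.

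Th encodes tyrosine hydroxylase, the rate-limiting enzyme of dopamine synthesis. Its intensity was 138, 156 and 150.2 after crush and 130.0, 144 and 166 in control eyes. The ranges overlapped throughout, and the order of the eyes turned over in pair 3. On the log2 scale the fold change was 0.02, with a 95% interval of -0.34 to 0.38, and it was -0.030 without pair 2. The other dopaminergic genes that were measured are described with the lists below.

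Calb2 encodes calretinin, a calcium-binding protein found in amacrine cells and in part of the RGCs. Its intensity was 9344, 6478 and 8552 after crush and 8592, 8736 and 8425 in control eyes. The control eyes lay close together (8585 ± 156, SD, n = 3) and the crushed eyes spread to both sides of them (8125 ± 1480, SD, n = 3). Its log2 fold change was -0.10 (95% interval -0.52 to 0.33), and 0.07 without pair 2. C1ql2, a secreted C1q-like protein known in the mouse hippocampus as an organizer of synapses, had 487, 387 and 498 after crush and 559, 514 and 443 in control eyes. It was lower in the crushed eye of pairs 1 and 2 and higher in that of pair 3, and the log2 fold change was -0.15 (95% interval -0.57 to 0.28). Without pair 2 it was -0.016 and without the array of crush eye 2 it was -0.031.

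Among the AP-2 factors, Tfap2c was the only gene of the 10 with a probe set past an unadjusted p under 0.05. Tfap2c, which encodes AP-2 gamma, was read by 3 probe sets that did not give the same result. On 1448977_at its intensity was 98.8, 52.5 and 26.2 after crush and 144, 180.5 and 113 in control eyes. All crushed eyes lay below all control eyes, and crush eye 3 was the lowest. The log2 differences were -0.55, -1.78 and -2.11 in pairs 1, 2 and 3, and the log2 fold change was -1.48 (standard error 0.32, adjusted p = 0.642 from limma). This probe set met the study's thresholds of an unadjusted p under 0.05, a fold over 1.2 and a difference of over 80 with limma, as did 0.543% of all tested probe sets in this direction and 2.58% in the other. It was the only one of the 19 to do so in either. With the methods' paired t-test it did not pass, and without the array of control eye 2 it had -1.31 and was no longer past an unadjusted p under 0.05. Its log2 fold change was -0.99 without the array of crush eye 3 and -0.96 with a floor of 64 in place of 16, both still past that threshold.

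The Tfap2c probe set 1418147_at, which shares its source sequence with 1448977_at, had 175, 132 and 132 after crush and 203, 225 and 174 in control eyes. Crush eye 1 lay just above control eye 3, so the groups overlapped there. For this probe set the log2 fold change was -0.46 (standard error 0.17, adjusted p = 0.642 from limma). It was between -0.59 and -0.31 when a pair or an array was left out, and it lost an unadjusted p under 0.05 without any 1 of the 3 pairs (-0.58, -0.31 and -0.49 without pairs 1, 2 and 3) and without the array of crush eye 2 (-0.39), crush eye 3 (-0.39), control eye 1 (-0.45) or control eye 2 (-0.37), and also with no filter on dim probe sets and by the methods' paired t-test. The brightest probe set, 1436392_s_at, had 2997, 3980.3 and 4419.9 after crush and 3925, 3949.6 and 3987 in control eyes. Here the control eyes were nearly equal, while crush eye 1 was low and crush eye 3 high. The fitted log2 fold change was -0.08 (95% interval -0.50 to 0.34), while the dimmer probe sets had -1.48 and -0.46. A suffix of s marks a probe set whose probes may match transcripts of more than one gene.

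Tfap2a, which encodes AP-2 alpha, had 3894, 3258 and 4800.4 after crush and 4561, 4725 and 4363 in control eyes on its brightest probe set. Crush eye 3 was the highest of the 6 and the other crushed eyes were the lowest. The log2 fold change was -0.21 (standard error 0.18, adjusted p = 0.744 from limma) with all pairs, -0.045 without pair 2, -0.073 without the array of crush eye 2 and -0.38 without pair 3. The others were 1426048_s_at at -0.04 and 1421995_at at -0.34, the second a dim probe set with 39.2 to 62.2 after crush and 55.5 to 73.5 in control eyes. Neither was past an unadjusted p under 0.05, although 1421995_at was so without the array of crush eye 1 (-0.50). Without the array of crush eye 2 it was -0.17.

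Tfap2b, which encodes AP-2 beta, had 4457, 4964 and 4766 after crush and 5054, 5766 and 4636 in control eyes. Crush eye 3 was above its control eye and the others were below theirs. Its log2 fold changes were -0.12 (95% interval -0.48 to 0.24) on this probe set and -0.14 (95% interval -0.64 to 0.35) on 1423340_at, and without pair 2 these were -0.071 and 0.081. On the brightest probe sets of Tfap2a, Tfap2b and Tfap2c the crushed eye was lower in pair 1, with log2 differences of -0.23, -0.18 and -0.39, and higher in pair 3, with 0.14, 0.04 and 0.15. In pair 2 the differences were -0.54, -0.22 and 0.01.

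Pax6, a paired box transcription factor of amacrine cells, horizontal cells and RGCs, had 4229.6, 3791 and 3889.6 after crush and 4429, 4829 and 4119 in control eyes on its brightest probe set, 1419271_at. The crushed eye was lower in all 3 pairs, as it was for 4 of the 19 amacrine probe sets against 14.2% of all tested (higher in all 3 pairs for 0 of the 19, against 17.6%), but crush eye 1 lay above control eye 3. On the log2 scale the fold change was -0.17 (standard error 0.14, adjusted p = 0.748 from limma), or -0.075 without pair 2. The 4 dimmer probe sets of Pax6 had log2 fold changes of -0.04, -0.0037, 0.04 and 0.15, and their values lay between 33.3 and 123 after crush and between 32.7 and 124 in control eyes. On 1425960_s_at and 1452526_a_at the crushed eye of pair 1 was higher, by 0.60 and 0.56 as log2 differences, and pairs 2 and 3 lay between -0.28 and 0.026.

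The opposite strand transcript Pax6os1 is not one of the 10 genes, but it overlaps Pax6. It is also in the list that the study chose on these samples, so its direction is not independent evidence. Its intensity was 1199, 1307 and 1214 after crush and 1546, 1585 and 1647 in control eyes. All crushed eyes lay below all control eyes. Its log2 fold change was -0.36 (standard error 0.14, adjusted p = 0.642 from limma), past an unadjusted p under 0.05 with all pairs. This was lost without any 1 of the 3 pairs, with values of -0.36, -0.40 and -0.32 without pairs 1, 2 and 3, and without the array of crush eye 1 (-0.34) or of control eye 1 (-0.38), 2 (-0.36) or 3 (-0.34). Scaling all arrays to 1 median also ended the call, at a log2 fold change of -0.36.

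Of 48 other genes of amacrine cells and homologs of the 10 genes, 43 had a probe set under their symbol alone and 41 were tested, each by its brightest probe set. Of these 29 lay below 0 and 12 above. By limma 4 were lower and 1 higher past an unadjusted p under 0.05, and 0 passed an adjusted one. This count leaves out dimmer probe sets. One of Dab1, 1427307_a_at, was also past that unadjusted threshold at -0.51, with all crushed eyes below all control eyes. The brightest probe set of Dab1, at -0.22, was not past it, and another was at 0.02. Over all tested probe sets 51.1% lay below 0, with 2.51% lower and 5.16% higher at that unadjusted threshold. The median log2 fold change of these 41 genes was -0.11, and within pairs it was -0.07, -0.25 and 0.02. Without the array of crush eye 2, 22 of 41 lay below 0. Without a pairing block 2 were lower, since Penk and Neurod4 were lost.

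The lower genes were from the lists of transcription factors and of amacrine subtypes. Vip, a neuropeptide of a type of wide-field amacrine cell, had an intensity of 1011, 1638 and 1563 after crush and of 2393, 2751 and 2120.0 in control eyes. All crushed eyes lay below all control eyes. The fitted log2 fold change was -0.81 (standard error 0.20, adjusted p = 0.642 from limma), and it stayed past an unadjusted p under 0.05 without any 1 pair or array, between -0.995 and -0.59, but not by the methods' paired t-test. Penk, which encodes the precursor of enkephalins, had 5082, 1674 and 4179 after crush and 6483, 2697 and 4890.3 in control eyes. The pairs differed more than the groups, and pair 2 was low in both eyes. Across pairs the log2 fold change was -0.42 (standard error 0.16, adjusted p = 0.642 from limma), which was not past an unadjusted p under 0.05 without any 1 pair or array, and without the array of crush eye 2, where no block can be used, it was 0.065.

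Neurod6, a basic helix-loop-helix factor of a subset of amacrine cells in the mouse, had 69.2, 66.2 and 30.4 after crush and 101, 186 and 67.4 in control eyes. The crushed eye was lower in all 3 pairs, although the groups overlapped. The log2 fold change was -1.06 (standard error 0.22, adjusted p = 0.642 from limma), and without the array of control eye 2 it was -0.67, of crush eye 3 -0.68 and of control eye 1 -1.11, none past an unadjusted p under 0.05. With a floor of 64 it was -0.70, also not past it. Neurod4, a related factor that acts in the genesis of amacrine cells, had 2286, 3961 and 2951 after crush and 3928, 5158 and 3469.6 in control eyes. It is not taken here as particular to amacrine cells, and a share from other cells was not tested. The groups overlapped, with the crushed eye lower in all 3 pairs. On the log2 scale the fold change was -0.47 (standard error 0.17, adjusted p = 0.642 from limma), and -0.89 on another probe set, 1418054_at. The call on the brightest was lost without pair 1 (-0.31) or pair 2 (-0.51), without the array of crush eye 1 (-0.27) or 3 (-0.46) or of any control eye (-0.50, -0.30 and -0.59), and after quantile normalization.

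Barhl2, a homeodomain factor of amacrine subtypes, was the higher gene, with 62.6, 66.6 and 67.3 after crush and 45.3, 38.8 and 49.9 in control eyes. All crushed eyes lay above all control eyes at a low intensity. Its log2 fold change was 0.56 (standard error 0.15, adjusted p = 0.642 from limma), and with a floor of 64, which lies above most of these values, it was 0.04.

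**Figure D3:**
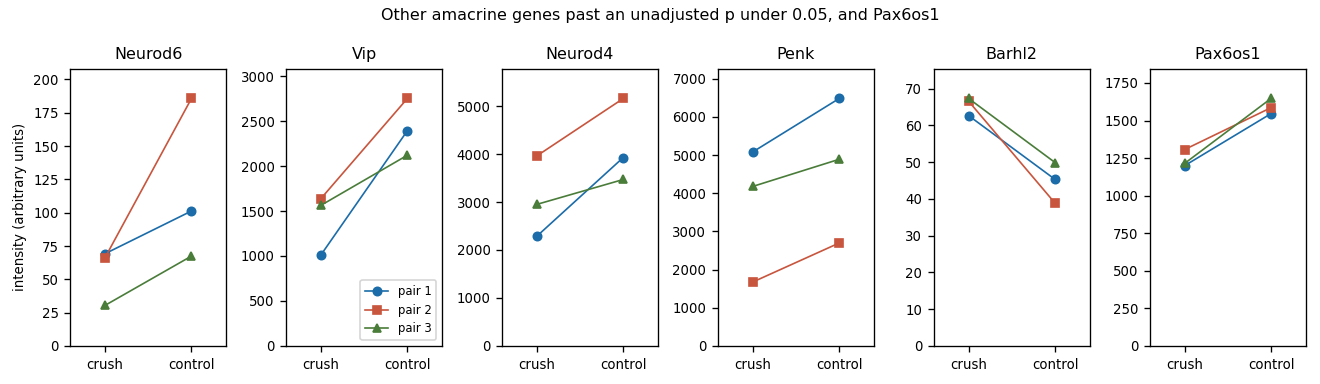
Array intensity, in arbitrary units on axes that start at 0, of the 5 other amacrine genes past an unadjusted p under 0.05 and of Pax6os1, in crushed eyes (left) and control eyes (right), with a line joining the eyes of a pair. The 5 genes were counted by their brightest probe sets. Vip and Pax6os1 have all crushed eyes below all control eyes, and Barhl2 has all of them above.

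In the other lists 0 genes passed an unadjusted p under 0.05. Of 6 genes of starburst and cholinergic cells 5 lay below 0, among them Isl1 at -0.06 and Sox2, a factor of mature starburst cells, at -0.11. A dimmer probe set of Isl1 was at 0.05. Isl1 and Sox2 had means of 5054 and 2494, beside 140 for Chat, 126 for Slc18a3 and 154 for Slc5a7. They are not taken here as particular to starburst cells. Of 7 tested dopaminergic genes 4 lay below 0, with Qdpr, which regenerates the cofactor of tyrosine hydroxylase, at -0.02 and Pts, which acts in the synthesis of that cofactor, at 0.20. Slc6a3, the dopamine transporter and a defining marker of these cells, had a mean of 32.7 after crush and 30.1 in control eyes and was too dim to be tested. Of 4 genes of GABA and glycine transmission 3 lay below 0, with Gad1, which makes GABA, at -0.11 and Slc32a1, which loads GABA and glycine into vesicles, at -0.21, or -0.059 without pair 2. Dimmer tested probe sets of Gad1 and Slc32a1 were at -0.16 and 0.05. The brightest genes of the factor and subtype lists were Neurod1 at 0.16, Meis2 at -0.14, Tac1 at -0.12 and Calb1 at -0.11. Dimmer probe sets of these genes had 0.15 for Neurod1, 0.06 to 0.62 for Meis2, -0.47 for Tac1 and -0.03 to 0.19 for Calb1. The sign for Isl1, Slc32a1, Meis2 and Calb1 thus depends on the probe set. Neurod1 is not taken here as particular to amacrine cells. Its log2 differences were -0.09, 0.22 and 0.36 in pairs 1, 2 and 3, beside medians of -0.21, 0.12 and 0.84 for the rod markers. A part of rod RNA in its values was not tested. Among 4 homologs of the 10 genes, C1ql1 was at -0.31, and at -0.072 without the array of crush eye 2. C1ql3 was at 0.19 on its brightest probe set, with -0.08, -0.01 and 0.68 in pairs 1, 2 and 3. Its other probe sets went the other way, at -0.30 and -0.35.

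Markers of other cells were read on the same arrays, and some of those of bipolar and Muller cells were lower after crush at an unadjusted p. Of 5 bipolar cell markers with a probe set 5 lay below 0, and 2 of them, Cabp5 at -0.66 and Gng13 at -0.49, passed an unadjusted p under 0.05 by limma. The others, Pcp2 at -0.09, Prkca at -0.05 and Trpm1 at -0.02, did not, and the median over the 5 was -0.09. Cabp5 had means of 1736 after crush and 2780 in control eyes, and Gng13 had 2260 and 3151, so the sum below rests largely on these genes. Over all tested probe sets 51.1% lay below 0 and 2.51% were lower at that threshold. The summed intensity of the 5 bipolar cell markers was 10699 to 12704 after crush and 13197 to 15456 in control eyes. The medians over these markers were -0.13, -0.38 and -0.15 in pairs 1, 2 and 3, beside -0.06, -0.34 and 0.09 for the 10 amacrine genes. The 6 rod markers had a summed intensity of 35052 to 41658 after crush and 25393 to 46181 in control eyes, with medians of -0.21, 0.12 and 0.84. The 7 RGC markers had medians of 0.20, -0.18 and -0.02, with 6 of 7 lower in pair 2. All 6 Muller cell markers lay below 0, and 1 of them, the water channel Aqp4, passed an unadjusted p under 0.05 by limma at -0.36, lower in all 3 pairs. Their sum was 33059 to 34764 after crush and 34459 to 37515 in control eyes, with medians of -0.23, -0.12 and -0.05 in pairs 1, 2 and 3. The median log2 fold changes were 0.28 over 3 horizontal cell markers, 0.23 over 3 microglia markers and 0.18 over 2 endothelial markers. None of these markers lay under the floor of 16 on all arrays, and their part in the amacrine values was not tested.

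**Figure D4:**
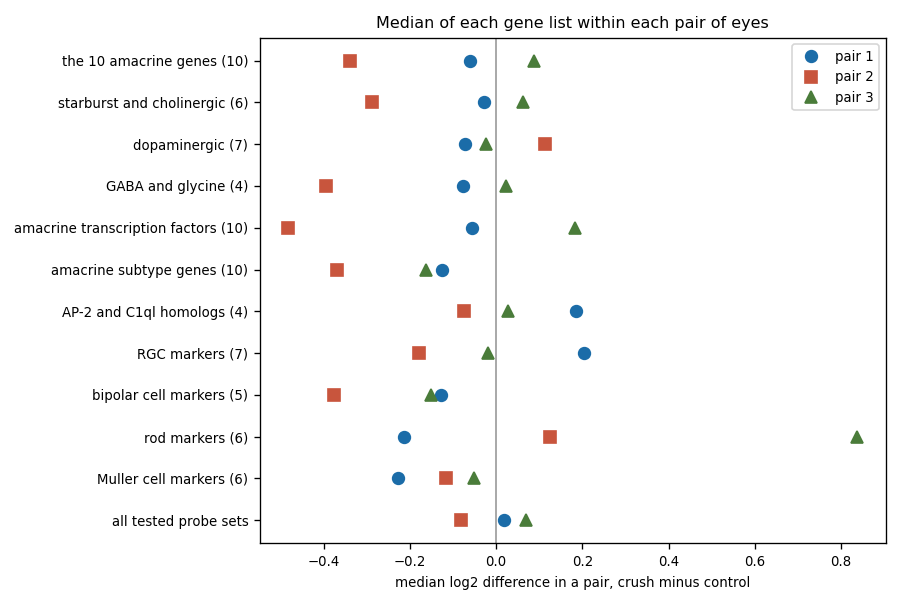
Median over each list of the log2 ratio of crushed eye to control eye, shown pair by pair, with the number of tested genes in parentheses. The 10 amacrine genes have medians of -0.06, -0.34 and 0.09 in pairs 1, 2 and 3, and the rod markers reach 0.84 in pair 3.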

How the data were processed

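Gene expression was measured on Affymetrix mouse arrays, with 1 array for each of 3 crushed and 3 control eyes. The deposited intensities are on a linear scale, as made by the authors in dChip by its PM/MM model after invariant set normalization. Of 45101 probe sets, 64 controls were left out. Symbols were joined through the platform annotation, where 34945 probe sets had a single symbol, 932 several and 9160 none. After a floor of 16 and log2 transformation, limma 3.58.1 in R 4.3.3 was run on the 33169 probe sets whose mean reached 40. The eye number was a block, following the paired test of the methods, and Benjamini-Hochberg adjustment covered every probe set tested. The calculation was first tested on simulated data. After removal of group means, eyes with the same number correlated at 0.15, 0.13 and 0.30 over the tested probe sets. The number of arrays limits the precision.

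All probe sets of the 10 genes were named. Of each other amacrine list, genes past an unadjusted p under 0.05 and the 2 brightest were named, and a gene was represented by the probe set with the highest mean. Cabp5, Gng13, Pcp2, Trpm1, Aqp4 and Dab1 were named after their values were seen. Members and lists were chosen with earlier results of these data known. Promoters were taken from RefSeq (GRCm38.p6) for the genes that had one. Alternatives covered the block, the floor, the filter, the scaling, the prior, the test, the combination of probe sets and the arrays used. Sequences of the array's probes were not used here.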

Additional observations from a re-analysis of the deposited data

How the results depend on the processing

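Of the 19 amacrine probe sets 2 were lower at an unadjusted p under 0.05, against 1 with no intensity filter, 0 with the methods' paired t-test and 0 to 3 when a pair or an array was left out, while 0 were higher under every alternative run. The count of other amacrine genes lower at that threshold was 4, and 2 with no replicate block, 2 with the methods' paired t-test and 1 to 5 with arrays left out. For the higher ones it was 1, and 2 with no filter, 0 with a mean of at least 100, 0 with an intensity trend and robust prior, and 1 to 2 with arrays left out. Over the whole array 0 probe sets passed an adjusted p under 0.05, with 2546 past an unadjusted one, and 1 passed with the trend and robust prior. Lower probe sets numbered 833, and 1341 with no filter, 547 with a mean of at least 100, 1252 after quantile normalization and 288 to 1513 with arrays left out. Higher ones numbered 1713, and 946 with the methods' paired t-test and 710 to 2326 with arrays left out. The median over the 10 genes was -0.13, and -0.20 to -0.04 with arrays left out. The number of the 19 below 0 was 16, and 12 to 16 with arrays left out. The unpaired fit without a replicate block changed no call of the 19. With a mean of at least 100, 5 of the named probe sets were too dim and gave no value. They were Tfap2a 1421995_at, Pax6 1425960_s_at and Pax6 1452526_a_at of the 19, and those of Barhl2 and Neurod6. After quantile normalization Pax6 1437816_at had 0.0055 and Qdpr 0.00062, with signs opposite to the fit above. The log2 ratio of the mean intensities, the value set beside the methods' paired t-test, was 0.00051 for Pax6 1437816_at, also of opposite sign. Log2 fold changes that changed sign when a pair or an array was left out ranged from -1.61 to 0.19 for Chat, from -0.18 to 0.090 for Slc18a3, from -0.21 to 0.071 for Calb2, from -0.26 to 0.11 for Tfap2a 1426048_s_at, from -0.31 to 0.081 for Tfap2b 1423340_at, from -0.19 to 0.085 for Tfap2c 1436392_s_at, from -0.065 to 0.11 for Th, from -0.12 to 0.024 for Pax6 1456342_at, from -0.097 to 0.081 for Pax6 1437816_at, from -0.23 to 0.20 for Pax6 1425960_s_at, from -0.16 to 0.32 for Pax6 1452526_a_at, from -0.13 to 0.079 for Isl1, from -0.29 to 0.021 for Sox2, from -0.056 to 0.0063 for Qdpr, from -0.23 to 0.044 for Tac1, from -0.78 to 0.065 for Penk, from -0.33 to 0.13 for Meis2, from -0.077 to 0.45 for C1ql3. The cause was not tested. The settings that leave out crush eye 1 or a control eye alone were chosen after seeing the data, and leaving out a single eye removes the block.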
